A study of Mus musculus with 4 samples.

Results

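RAD21 binding was examined around 8 genes of the primitive streak and the early mesoderm: T, Eomes, Mesp1, Mixl1, Tbx6, Gsc, Cdx1 and Cdx2. They were taken from a fixed list of names, which was chosen with earlier results of these data known. They are 8 of the 21418 autosomal protein-coding genes annotated on the mouse genome build mm9. A binding site was assigned to a gene when it lay within 100 kb of the gene body, even where the start of another gene was nearer. This gave 22 of the 15085 autosomal sites of embryonic stem cells (ESCs) and 10 of the 10781 autosomal sites of embryoid bodies (EBs).

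The ESCs were of the mouse line R1/E at differentiation day 0, kept with LIF, and the EBs were aggregates grown from them to day 12 in hanging drops. Both carried RAD21 fused to a LAP cassette, which contains GFP, on an integrated bacterial artificial chromosome, in resistant clones sorted for GFP, so the tagged protein was made beside the endogenous one. RAD21 was precipitated with a goat antibody against GFP, and control chromatin of each cell type was labelled as precipitated with goat IgG, although the same entries are also described as input DNA. There was 1 library per cell type and antibody, 4 libraries in all, with 13714772 autosomal reads for RAD21 in ESCs, 7740389 for RAD21 in EBs, 12602155 for IgG in ESCs and 6929293 for IgG in EBs. Without replicates no test between ESCs and EBs is possible, and every interval given here covers counting error at the 95% level only. Expression was not measured in these libraries, so the cells in the EBs could not be checked against marker genes, and in such mixed material a site bound in fewer cells and a site bound more weakly per cell cannot be told apart.

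RAD21 is the subunit that closes the ring of cohesin, the complex that holds sister chromatids together and that also extrudes and anchors chromatin loops. Loops are often anchored where cohesin meets the zinc finger protein CTCF, which binds a directional DNA motif. In the gastrulating embryo, epiblast cells pass through the primitive streak under Nodal, Wnt and BMP signals and become mesoderm and endoderm. T and Eomes are T-box transcription factors switched on early in the streak, Mixl1 and Gsc are homeobox factors of the streak and of its anterior end, Mesp1 is a basic helix-loop-helix factor of the first mesoderm, Tbx6 is a T-box factor of paraxial mesoderm, and Cdx1 and Cdx2 are caudal-type homeobox factors of the posterior body. Cdx2 is also known for its role in the trophectoderm.

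Joining overlapping ESC and EB sites gave 24 sites, of which 8 were listed in both cell types, 14 in ESCs only and 2 in EBs only. Sites are named here by the distance of the summit from the gene start, negative upstream and positive downstream in the direction of transcription. A match to a CTCF weight matrix of width 20 was found within 150 bp of the summit at 13 of the 24 sites, using a threshold passed by 1e-05 of the positions in windows away from sites. The 9 of these matches near genes other than Cdx1, read from the mm9 reference, are aligned below in the orientation of the motif, because matches are set against the read counts further on. Capitals mark the 12-base core, and strands refer to mm9.

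T -61594 bp, chr17:8565707-8565726, minus strand: agccCCACCAGAGGGCgccg
Eomes +11636 bp, chr9:118398967-118398986, minus strand: gtggCCACCAGATGGCggag
Mesp1 -5521 bp, chr7:86944132-86944151, plus strand: gctgCCAGCAGAGGGCgatg
Mesp1 +13006 bp, chr7:86925590-86925609, plus strand: atgaCCACTAGGTGGCagca
Mixl1 -67010 bp, chr1:182694234-182694253, minus strand: gtgtCCACTAGATGGCatca
Mixl1 -23588 bp, chr1:182650653-182650672, plus strand: ctggGCAGCAGGTGGCgcag
Tbx6 +40577 bp, chr7:133965520-133965539, plus strand: actgCCACTAGAGGGCagca
Gsc +33056 bp, chr12:105678448-105678467, plus strand: tgggCCACTAGGCGGCgaca
Cdx2 -12575 bp, chr5:148131446-148131465, minus strand: atggCCAGTAGATGGCagta

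In the core, positions 2, 3, 6, 7, 10, 11 and 12 held the same base in all 9 sequences. Position 1 was C in 8 of 9, the exception being the Mixl1 -23588 bp site. The other 4 positions held either 2 or 3 different bases. The 9 matches were picked by their score against the matrix. The shared bases are therefore largely given by the search and are no measure of conservation.

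The 6 sites below are those where RAD21 reads were higher in ESCs than in EBs beyond counting error. Each line gives the summit and 100 bp on both sides, on the plus strand. No letters are in capitals, because none of the 6 held a CTCF match at this threshold.

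Eomes +20143 bp, chr9:118407373-118407573: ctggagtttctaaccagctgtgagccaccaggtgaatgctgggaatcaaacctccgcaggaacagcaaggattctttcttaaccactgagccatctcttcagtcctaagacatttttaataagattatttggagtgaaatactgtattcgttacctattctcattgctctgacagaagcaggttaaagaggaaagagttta
Mixl1 -96592 bp, chr1:182723657-182723857: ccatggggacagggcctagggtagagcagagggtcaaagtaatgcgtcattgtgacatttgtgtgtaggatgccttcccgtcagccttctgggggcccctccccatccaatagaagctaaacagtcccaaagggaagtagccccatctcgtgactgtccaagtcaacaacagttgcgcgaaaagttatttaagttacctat
Gsc +13638 bp, chr12:105697799-105697999: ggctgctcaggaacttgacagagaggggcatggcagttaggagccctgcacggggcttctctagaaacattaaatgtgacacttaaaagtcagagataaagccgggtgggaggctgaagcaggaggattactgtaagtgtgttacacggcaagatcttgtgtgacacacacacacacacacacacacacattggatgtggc
Gsc +54614 bp, chr12:105656823-105657023: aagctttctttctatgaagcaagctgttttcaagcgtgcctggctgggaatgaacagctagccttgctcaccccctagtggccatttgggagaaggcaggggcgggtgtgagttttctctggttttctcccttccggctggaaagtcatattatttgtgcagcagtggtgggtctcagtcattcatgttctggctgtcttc
Cdx2 -50390 bp, chr5:148169136-148169336: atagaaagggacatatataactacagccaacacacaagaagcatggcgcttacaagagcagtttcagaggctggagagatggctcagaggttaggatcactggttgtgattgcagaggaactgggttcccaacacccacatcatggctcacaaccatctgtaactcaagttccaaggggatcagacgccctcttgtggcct
Cdx2 +12872 bp, chr5:148105874-148106074: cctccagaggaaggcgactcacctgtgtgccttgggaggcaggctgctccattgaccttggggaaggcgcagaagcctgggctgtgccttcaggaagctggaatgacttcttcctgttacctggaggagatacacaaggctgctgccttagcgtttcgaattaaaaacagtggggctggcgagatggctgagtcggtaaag

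The next 3 windows are the sites where RAD21 reads were higher in EBs. The capitals in the T window mark its CTCF match, which lies on the minus strand and is printed here as the plus strand reads. The Mesp1 and Tbx6 windows held none.

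T -61594 bp, chr17:8565594-8565794: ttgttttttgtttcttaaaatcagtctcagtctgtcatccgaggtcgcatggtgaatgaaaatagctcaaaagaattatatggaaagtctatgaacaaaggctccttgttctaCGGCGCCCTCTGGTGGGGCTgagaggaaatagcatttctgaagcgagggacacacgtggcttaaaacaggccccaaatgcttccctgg
Mesp1 +64850 bp, chr7:86873724-86873924: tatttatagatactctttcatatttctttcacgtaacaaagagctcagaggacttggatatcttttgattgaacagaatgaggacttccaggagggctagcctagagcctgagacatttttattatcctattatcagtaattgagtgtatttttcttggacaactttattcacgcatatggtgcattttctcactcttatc
Tbx6 -88060 bp, chr7:133836837-133837037: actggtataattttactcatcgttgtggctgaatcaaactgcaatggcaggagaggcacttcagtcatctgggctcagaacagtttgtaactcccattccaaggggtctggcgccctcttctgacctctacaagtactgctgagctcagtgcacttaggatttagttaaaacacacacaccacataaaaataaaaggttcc

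The number of sites differed between the genes. Cdx1 (chr18:61178516-61195853, minus strand) had 5 ESC and 3 EB sites. Gsc (chr12:105709419-105711537, minus strand) had 4 ESC sites and 1 EB site, and Mixl1 (chr1:182623174-182627165, minus strand) had 4 ESC and 0 EB sites. Cdx2 (chr5:148112381-148118846, minus strand) had 3 ESC sites and 1 EB site. Eomes (chr9:118387330-118395250, plus strand) had 2 ESC and 0 EB sites. Mesp1 (chr7:86937127-86938674, minus strand) and Tbx6 (chr7:133924997-133929074, plus strand) each had 2 ESC and 2 EB sites, of which 1 was shared at Mesp1 and both at Tbx6. T (chr17:8627288-8635361, plus strand) had 0 ESC sites and 1 EB site. Thus 5 genes had more ESC than EB sites and 1 gene, T, had more EB sites. Across all 21418 autosomal coding genes 51.9% had more ESC than EB sites within the same distance, and 3098 genes had more EB than ESC sites. At least 1 ESC site was found at 82.3% and at least 1 EB site at 73.6%. Eomes and Mixl1 had ESC sites without an EB site, as did 12.2% of coding genes, and T had the reverse, as did 3.52%. The mean number of sites per gene was 2.75 in ESCs and 1.25 in EBs for the 8 genes, against 2.40 and 1.57 for all coding genes. The ESC library was also the deeper one, and the part of depth in the number of sites was not tested.

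**Figure D1:**
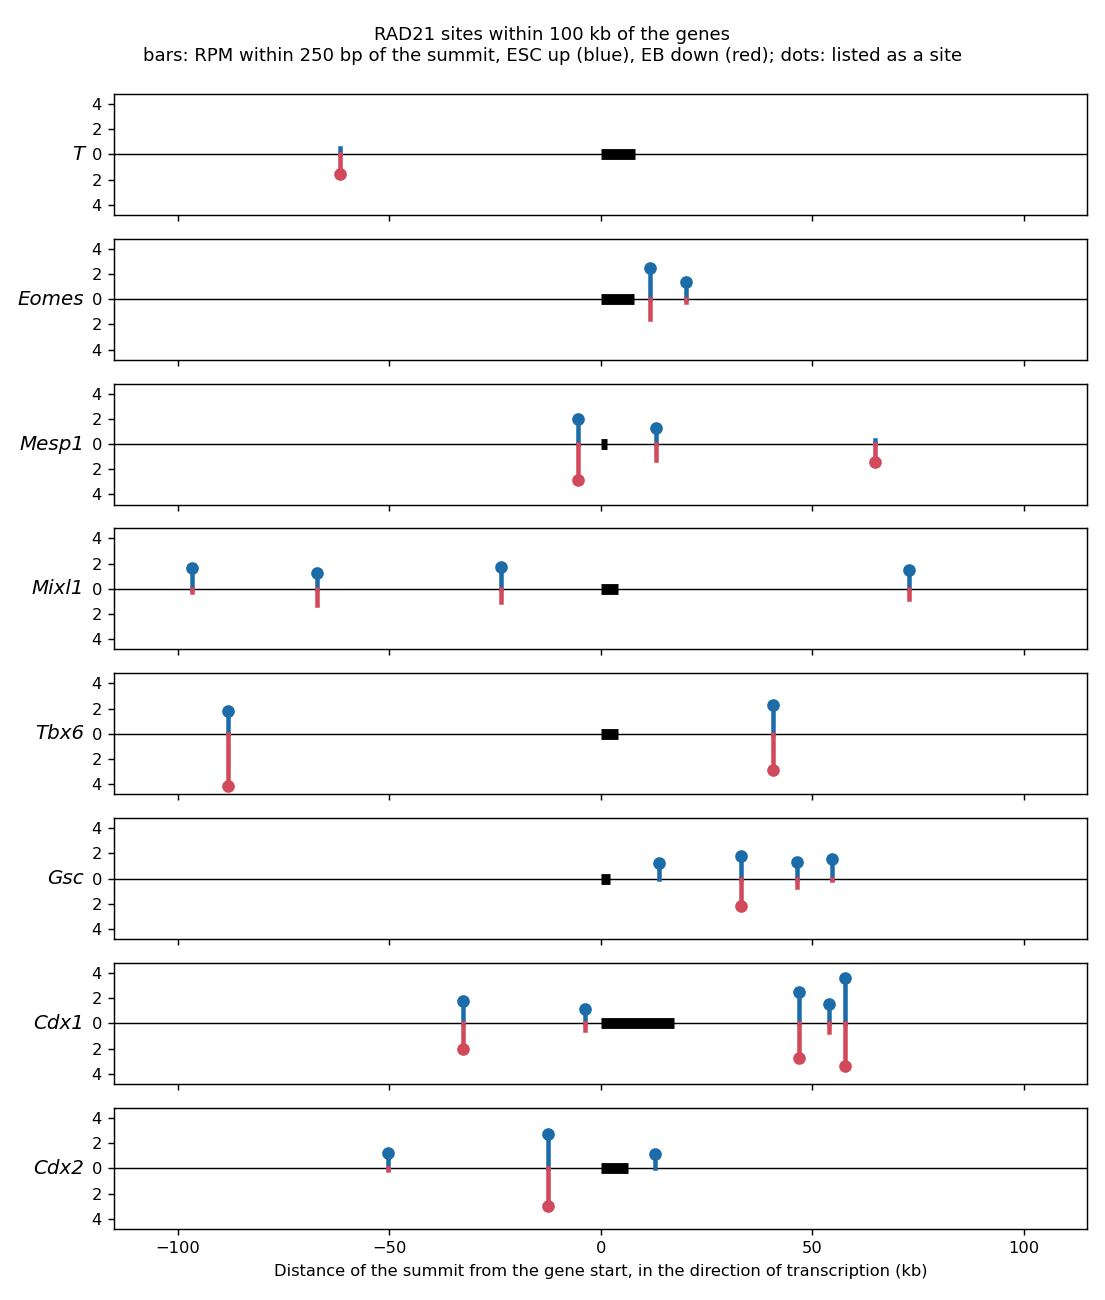
Sites within 100 kb of the 8 genes, placed by the distance of the summit from the gene start in kb; blue bars upward give ESC RAD21 and red bars downward give EB RAD21 reads per 1000000 autosomal reads (RPM) within 250 bp of the summit, dots mark the cell type in which the site was listed, and black boxes are gene bodies. Mixl1 and Eomes have no red dot, T has no blue dot, and no site lies on a gene start.

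None of the 24 summits lay within a listed gene. By the annotation 13 were intergenic, 9 were in introns of neighbouring genes and 2 were within 1 kb of the start of another transcript. The site nearest to a start was Cdx1 -3809 bp, followed by Mesp1 -5521 bp. The most distant was Mixl1 -96592 bp. The listed gene had the nearest coding start at Eomes +11636 bp, Mesp1 -5521 and +13006 bp, Gsc +13638 and +33056 bp, Cdx1 -3809 bp and Cdx2 +12872 bp. All other summits lay nearer to the start of another coding gene. Mixl1 -23588 bp, for example, was 5421 bp from the start of Acbd3, and Tbx6 -88060 bp was 1978 bp from that of Bola2.

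Of the 22 ESC sites, 8 overlapped an EB site, which is 36.4% (17.2 to 59.3%, Clopper-Pearson), against 48.6% of all autosomal ESC sites. Of the 10 EB sites, 8 overlapped an ESC site, which is 80% (44.4 to 97.5%), against 68.3% of all autosomal EB sites. Both intervals include the share over all sites. Among the 11 ESC sites with a deposited score of at least 100, where the score is the peak caller's p-value on a negative log10 scale multiplied by 10, 72.7% overlapped an EB site, against 66.9% of all ESC sites of that score.

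Reads were then counted in all 4 libraries within 250 bp of each summit, whether or not a site had been listed there. A site was counted as higher in one cell type when the exact interval of the EB over ESC ratio, with each count scaled to reads per 1000000 autosomal reads of its library (RPM), excluded 1. By this rule 6 of the 24 sites were higher in ESCs, beside 18.4% of all 18504 autosomal sites. All 6 were among the 14 sites listed in ESCs only, a class in which 42.1% of all sites were higher in ESCs and 0.0258% higher in EBs. A further 3 of the 24 were higher in EBs, beside 20.2% of all sites. They included both sites listed in EBs only, a class in which 64.6% were higher in EBs. The listing rests on the same RAD21 reads, so the direction at sites listed in 1 cell type is largely given by the list and the ratios are descriptions of these libraries. The median log2 ratio of EB over ESC, with 1 read added to each count, was -0.35 at the 24 sites and 0.03 at all sites. For sites listed in both cell types it was 0.28 against 0.38, and for sites listed in ESCs only it was -0.99 against -1.11.

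These medians depended on the scale. The EB over ESC ratio of read density fell with GC content, for RAD21 and for IgG. In windows away from sites the log2 ratio of EB over ESC RAD21 RPM went from 0.61 in the most AT-rich of 10 classes to -0.66 in the most GC-rich. That of IgG went from 0.50 to -0.64. The median GC content within 250 bp of the summit was 49.8% at the 24 sites and 44.9% at all sites. IgG reads over the gene bodies with 100 kb on both sides had EB over ESC ratios from 0.676 at Cdx1 to 0.914 at Mixl1. The interval lay below 1 at all of them but Eomes and Mixl1, and at 55.1% of all coding gene loci. When each site was scaled to windows of its GC class, the median of the 24 sites turned to 0.32 and that of all sites was 0.30. Under this scaling 5 of the 24 sites were higher in EBs, beside 24.6% of all sites, and 6 were higher in ESCs, beside 12.7%. When sites were scaled by the IgG reads of the surrounding 200 kb, the medians were -0.07 and 0.20. Here 4 sites were higher in EBs, beside 22.6%, and 6 were higher in ESCs, beside 13.9%. When the libraries were scaled to a median of 0 at sites listed in both, the medians were -0.73 and -0.35. Then 1 site was higher in EBs, beside 11.1%, and 9 were higher in ESCs, beside 29.5%, the added ones being Eomes +11636 bp, Mixl1 +72923 bp and Cdx1 +54010 bp. The 6 sites higher in ESCs were among those called under each of these scalings.

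**Figure D2:**
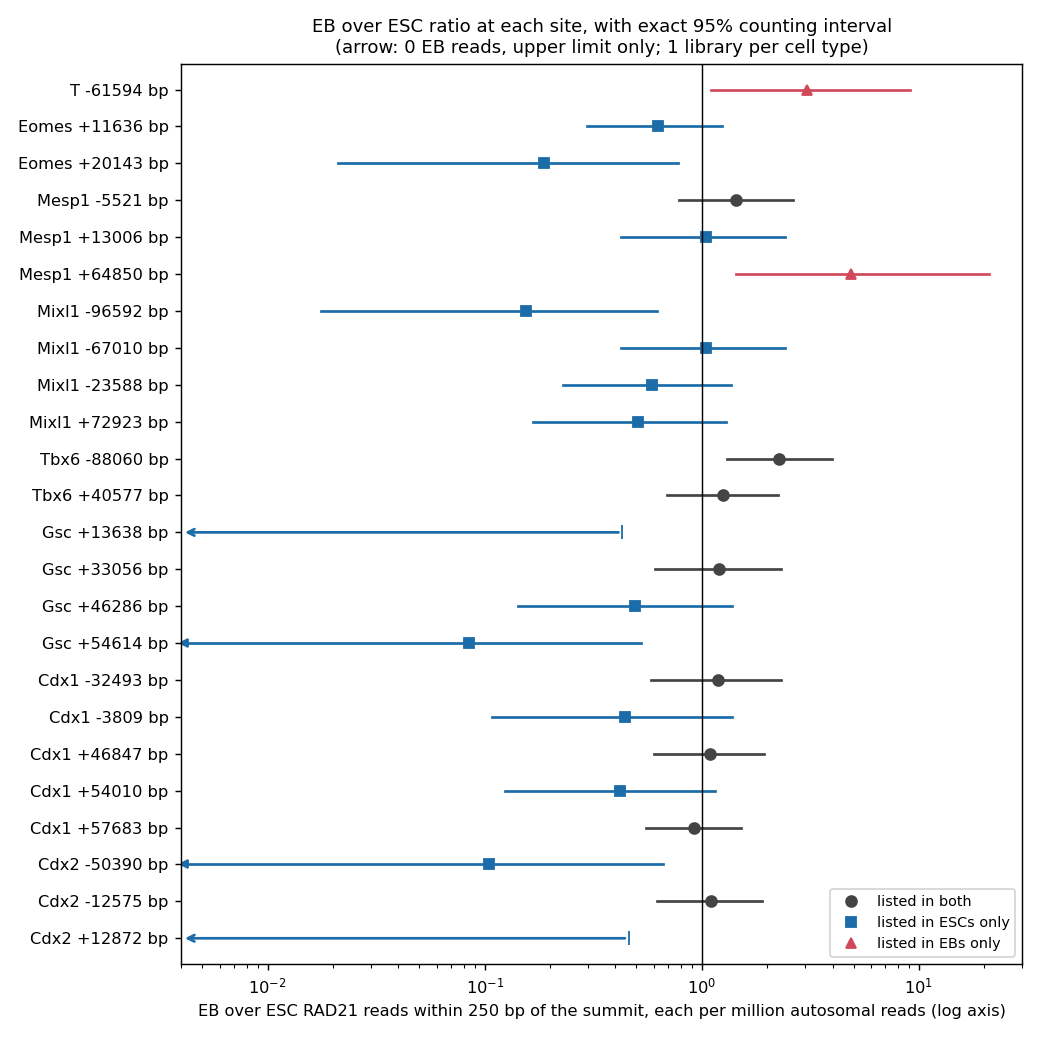
EB over ESC ratio of RAD21 reads within 250 bp of each of the 24 summits, on a log axis, with exact 95% counting intervals; circles are sites listed in both cell types, blue squares in ESCs only and red triangles in EBs only, and arrows mark sites with 0 EB reads, for which only the upper limit is defined; the intervals of Gsc +54614 bp and Cdx2 -50390 bp run past the left edge. The 6 intervals wholly below 1 belong to Eomes, Mixl1, Gsc and Cdx2, and the 3 wholly above 1 to T, Mesp1 and Tbx6.

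Eomes lies upstream of 2 sites, both intergenic and both listed in ESCs only. Its nearest site, Eomes +11636 bp (chr9:118398472-118399455), had the second highest ESC score of the 24 at 192.35 and held 34 RAD21 reads in ESCs and 12 in EBs, with 3 IgG reads in each cell type. The EB over ESC ratio was 0.625 (0.295 to 1.24), so this site was absent from the EB list although its EB reads were above the 4 reads that mark the 95th percentile of windows away from sites. At Eomes +20143 bp (chr9:118407065-118407846) there were 19 RAD21 reads in ESCs and 2 in EBs, with 3 and 0 IgG reads. The ratio was 0.187 (0.0211 to 0.773), and the EB reads were no higher than in windows away from sites.

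Mixl1 showed the same combination along a longer stretch. Mixl1 -96592 bp (chr1:182723360-182724266), the site of highest score at this gene, had 23 RAD21 reads in ESCs and 2 in EBs, with 1 and 2 IgG reads. Its ratio was 0.154 (0.0176 to 0.624), and ESC reads alone stood out from the controls. The nearest site, Mixl1 -23588 bp (chr1:182650144-182651156), had 24 RAD21 reads in ESCs and 8 in EBs, with 5 IgG reads in each. Here the ratio of 0.591 (0.229 to 1.36) did not exclude 1. All 4 Mixl1 sites were intergenic.

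Gsc had sites with 0 or 1 EB read beside a site listed in both cell types. The nearest site, Gsc +13638 bp (chr12:105697246-105698242), had 17 RAD21 reads in ESCs and 0 in EBs, with 1 IgG read in each. Had the RPM been as high in EBs, 9.59 reads would have fallen there. The upper limit of the EB over ESC ratio was 0.429. The Gsc +54614 bp site (chr12:105656421-105657363), within 1 kb of an annotated SNORA17 start, had 21 RAD21 reads in ESCs and 1 in EBs, with 2 and 3 IgG reads, a ratio of 0.0844 (0.0020 to 0.525). Between them lay Gsc +33056 bp (chr12:105678142-105678929), the site of highest score at this gene and the only one listed in both cell types. It had 25 RAD21 reads in ESCs and 17 in EBs, with 1 IgG read in each, and a ratio of 1.20 (0.611 to 2.32). Sites with no EB reads above IgG at this depth thus stood on both sides of a site listed in both cell types.

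Cdx2 had the same arrangement around its start. The nearest site, Cdx2 -12575 bp (chr5:148130886-148131891), lies in an intron of Prhoxnb and was also the one of highest score. It had 37 RAD21 reads in ESCs and 23 in EBs, with 4 and 0 IgG reads, a ratio of 1.10 (0.625 to 1.90). On the other side of the gene, Cdx2 +12872 bp (chr5:148105582-148106174) had 16 RAD21 reads in ESCs and 0 in EBs, with 5 and 1 IgG reads, and the upper limit of the ratio was 0.459. In an intron of Flt3, Cdx2 -50390 bp (chr5:148168915-148169395) had 17 RAD21 reads in ESCs and 1 in EBs, with 3 and 1 IgG reads, a ratio of 0.104 (0.0025 to 0.665). Both of these were weak ESC sites, with scores of 52.63 and 72.04, and the call at -50390 bp was lost when reads were counted within 500 bp.

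At Cdx1 no site was called in either direction. The strongest of all 24 sites by score was Cdx1 +57683 bp (chr18:61137423-61138684, score 330.15), in an intron of Camk2a, with 50 RAD21 reads in ESCs, 26 in EBs and 2 IgG reads in each. Its ratio was 0.921 (0.551 to 1.51). The nearest site, Cdx1 -3809 bp (chr18:61199285-61199923), had 16 RAD21 reads in ESCs and 4 in EBs, with 3 IgG reads in each, a ratio of 0.443 (0.108 to 1.37). The interval was narrow at the strong distal site and wide at the weak proximal one.

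Higher EB reads were found at 1 site each of T, Mesp1 and Tbx6. The only site near T, T -61594 bp (chr17:8565290-8565973), within 1 kb of the annotated start of the T2 gene, had 7 RAD21 reads in ESCs and 12 in EBs, with 1 IgG read in each, and a ratio of 3.04 (1.10 to 9.11). Mesp1 +64850 bp (chr7:86873675-86874574), in an intron of Plin1, had 4 RAD21 reads in ESCs and 11 in EBs, with 1 IgG read in each, and a ratio of 4.87 (1.44 to 21.0). Both were listed in EBs only, and in ESCs neither exceeded the 7 reads that mark the same percentile there, which 64.8% of all sites listed in EBs only did. Tbx6 -88060 bp (chr7:133836381-133837460), in an intron of Slx1b, was listed in both and had 25 RAD21 reads in ESCs and 32 in EBs, with 4 and 3 IgG reads. Its ratio of 2.27 (1.30 to 3.99) stood beside 20.8% of all sites listed in both that were higher in EBs. None of the 3 calls held under every alternative: T was lost with reads within 150 bp, Mesp1 and Tbx6 with reads within 500 bp, and T and Tbx6 when libraries were scaled to sites listed in both.

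The sites nearest to Mesp1 and Tbx6 were bound in both cell types. Mesp1 -5521 bp (chr7:86943673-86944607, intergenic) had 27 RAD21 reads in ESCs and 22 in EBs, with 2 IgG reads in ESCs and 1 in EBs, and a ratio of 1.44 (0.784 to 2.63). Tbx6 +40577 bp (chr7:133965069-133966017), in an intron of Fam57b, had 31 RAD21 reads in ESCs and 22 in EBs, with 1 and 5 IgG reads, and a ratio of 1.26 (0.694 to 2.24). Neither interval excluded 1, but the Mesp1 site was higher in EBs after scaling by the surrounding IgG reads (1.86, 1.01 to 3.38) and by GC class (1.99, 1.08 to 3.63), and the Tbx6 site by GC class (1.99, 1.10 to 3.55). The remaining 7 sites, at Mesp1, Mixl1, Gsc and Cdx1, held 17 to 34 RAD21 reads in ESCs and 5 to 21 in EBs, with 0 to 6 IgG reads, and had ratios from 0.422 to 1.18.

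Absence from the EB list did not always mean absence of EB reads. Of the 14 sites listed in ESCs only, 7 (50.0%, 23.0 to 77.0%) exceeded that EB level of 4 reads, against 53.8% of all sites listed in ESCs only. These 7 held 5 to 12 EB reads. Among them only Mixl1 +72923 bp had RAD21 above IgG in EBs beyond counting error, with 6 and 0 reads. At the others the interval of RAD21 over IgG RPM in EBs included 1. Its lower limit was 0.966 at Eomes +11636 bp, with 12 RAD21 and 3 IgG reads. At Mixl1 -23588 bp 8 RAD21 reads stood beside 5 IgG reads, and at Gsc +46286 bp 5 beside 4. Summed over the 14 sites, RAD21 reads numbered 281 in ESCs and 66 in EBs and IgG reads 40 and 29, so that RAD21 RPM exceeded IgG RPM 6.46-fold (4.62 to 9.23) in ESCs and 2.04-fold (1.30 to 3.27) in EBs. Over the 8 sites listed in both, the same ratio was 13.7 (8.37 to 23.8) in ESCs and 8.01 (5.04 to 13.4) in EBs. RAD21 itself was not lower in EBs at these 8 sites. Its reads numbered 253 in ESCs and 179 in EBs, an EB over ESC ratio of RPM of 1.25. IgG reads numbered 17 and 20, a ratio of 2.14, so the lower value in EBs came with higher IgG. Over all autosomal sites the ratio of RAD21 over IgG RPM was 6.69 in ESCs and 3.04 in EBs at sites listed in ESCs only. At all sites listed in both it was 8.05 and 9.55. Sites were called on RAD21 against IgG in these same libraries, so an excess in a cell type that lists the site is given by the list. The intervals treat the summed reads as 1 count and leave out the spread between sites.

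**Figure D3:**
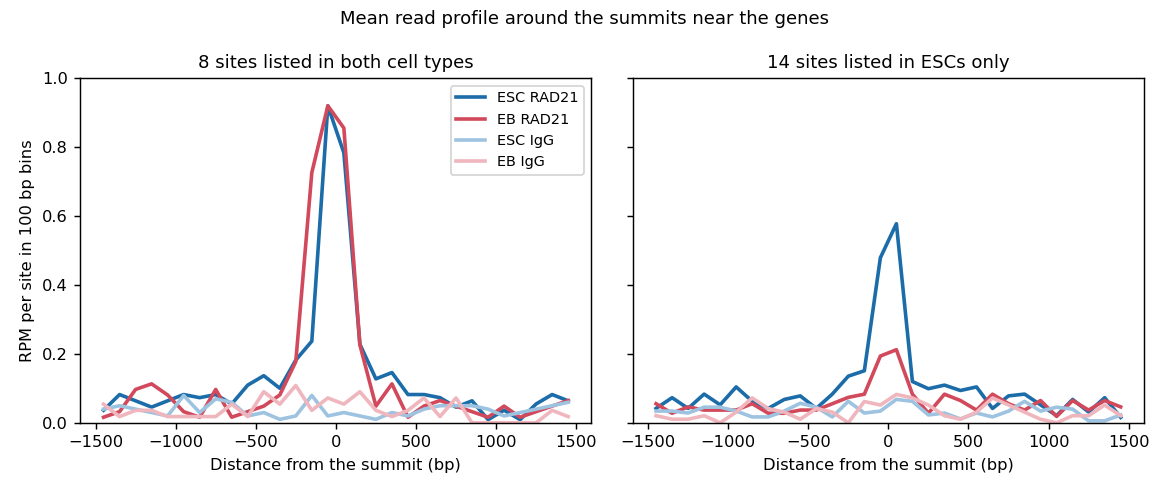
Mean RPM per site in 100 bp bins against the distance from the summit in bp, for the 8 sites listed in both cell types (left) and the 14 listed in ESCs only (right); lines are the 4 libraries. At sites listed in both, the RAD21 lines of ESCs and EBs both reach 0.92 RPM per bin, while at sites listed in ESCs only ESCs reach 0.578 and EBs 0.212, with IgG below 0.11 in both panels.

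The CTCF matches shown above were counted by class of site. Of the 8 sites listed in both cell types 7 held a match, against 64.4% of all such sites. Among the sites listed in ESCs only it was 5 of 14, against 54.7%, and among those listed in EBs only it was 1 of 2, against 39.1%. Over all 24 sites the share was 54.2% (32.8 to 74.4%), close to the 55.7% of all autosomal sites. None of the 6 sites higher in ESCs held a match (0 of 6, upper limit 45.9%), whereas 54.0% of all sites higher in ESCs did. The 13 sites with a match had EB over ESC ratios from 0.443 to 3.04 with a median of 1.09, and the 11 without a match had ratios from 0 to 4.87 with a median of 0.187. Over all autosomal sites the median log2 ratio was 0.01 with a match and 0.07 without, a difference of the opposite sign. The count of 0 of 6 depended on the threshold, which was a matrix score of 9.77 or 9.82 bits by chromosome. Just below it were Gsc +13638 bp at 9.68, Gsc +54614 bp at 8.89 and Cdx2 -50390 bp at 8.79. Far below it were Cdx2 +12872 bp at 1.72, Mixl1 -96592 bp at -2.87 and Eomes +20143 bp at -5.04. At a rate of 1e-04, 4 of the 6 sites held a match, against 82.7% of all sites higher in ESCs. At that rate 19 of the 24 sites had a match. These were 8 of 8 sites listed in both (90.4% of all such sites), 10 of 14 listed in ESCs only (82.9%) and 1 of 2 listed in EBs only (63.2%). The sites with a match were also the stronger ones, with a median score of 139.48 against 83.42, and the part of site strength in this split was not tested. A motif match does not show that CTCF was bound.

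With the motif oriented as written above, the summit lay on its 3′ side at 12 of the 13 sites with a match, as at 79.2% of all sites with a match. The median distance from the centre of the motif was 34.5 bp, against 45.5 bp over all sites. The exception was the Cdx1 -32493 bp site. Read 5′ to 3′, 8 of the 13 motifs pointed toward the start of the gene and 5 away from it.

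Fixed recognition patterns of factor families known from this stage were searched in the same windows. The Tcf/Lef pattern CTTTGAT, searched on both strands within 150 bp of the summit, occurred at 2 of 24 sites, Mixl1 -67010 bp and Cdx1 -3809 bp, and at 4.63% of all sites. The Gata pattern AGATAAG occurred at 1 site, Tbx6 +40577 bp, and at 3.59% of all sites. The T-box pattern AGGTGTGA occurred at 0 of 24 sites and 1.09% of all sites, the Foxh1 pattern AATCCACA at 0 of 24 and 1.5%, and the Oct pattern ATGCAAAT at 0 of 24 and 1.95%. In the 300 bp from 250 bp before to 50 bp after the gene start, the Tcf/Lef pattern occurred at Mixl1 and Cdx1 (3.49% of all coding starts), the Foxh1 pattern at Mixl1 (0.817%) and the Oct pattern at Cdx2 (1.72%). These letters describe the sequence and say nothing about binding.

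No gene of the list had a RAD21 summit within 1 kb of its start in either cell type. Such summits were rare throughout, at 2.31% of coding gene starts in ESCs and 2.22% in EBs. RAD21 reads within 1 kb of the start exceeded IgG reads beyond counting error at 0 of the 8 starts in ESCs, beside 8.27% of all coding starts, and at 0 of 8 in EBs, beside 8.32%. With 500 bp windows Eomes passed in ESCs, with 18 RAD21 and 5 IgG reads, and with 2 kb windows Eomes and Gsc passed. At Cdx2 in EBs the reads were below IgG, with 0 RAD21 and 6 IgG reads, as at 0.91% of coding starts.

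RAD21 RPM at the start was lower in EBs than in ESCs at all 8 genes. Eomes had 22 RAD21 reads in ESCs and 4 in EBs, with 10 and 2 IgG reads, a ratio of 0.322 (0.0807 to 0.949). Mixl1 had 13 RAD21 reads in ESCs and 1 in EBs, with 6 and 3 IgG reads, a ratio of 0.136 (0.0032 to 0.907). These 2 of 8 starts were higher in ESCs beyond counting error, beside 3.59% of all coding starts, and 0 of 8 were higher in EBs, beside 5.7%, although at Eomes the IgG reads moved in the same direction, with an EB over ESC ratio of 0.364 (0.0388 to 1.71). Both calls depended on the window. Within 500 bp of the start Eomes had 18 and 3 RAD21 reads, with an upper limit of 1.01, and Mixl1 had 2 and 0. Within 2 kb Eomes kept its call with a ratio of 0.443 (0.206 to 0.872), while the Mixl1 ratio was 0.564 (0.203 to 1.37). IgG itself was higher in ESCs beyond counting error at 0 of the 8 starts, beside 1.96% of all coding starts.

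The other 6 starts had intervals that included 1. T had 6 RAD21 reads in ESCs and 1 in EBs, with 6 and 1 IgG reads, and so no excess over the control in either. Gsc had 8 and 0 RAD21 reads, with 2 and 1 IgG reads, and a ratio whose upper limit was 1.04. Cdx2 had 8 and 0 RAD21 reads, with 14 and 6 IgG reads, and the same upper limit. At these 3 starts, as at every start of the list, RAD21 reads in EBs did not exceed IgG reads beyond counting error. Mesp1 had 7 and 3 RAD21 reads with 4 and 2 IgG reads, a ratio of 0.759 (0.127 to 3.33). Tbx6 had 10 and 5 with 4 and 4, a ratio of 0.886 (0.238 to 2.84). Cdx1 had 10 and 4 with 3 and 2, a ratio of 0.709 (0.162 to 2.46). At these last 3 genes the difference was small against the counting error.

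Summed over the 8 starts there were 84 RAD21 reads in ESCs and 18 in EBs, an EB over ESC ratio of 0.380, and 49 and 21 IgG reads, a ratio of 0.779. Over all coding starts the RAD21 ratio was 1.07 and the IgG ratio 0.931. The log2 ratio with 1 read added was below 0 at all 8 starts, beside 44.4% of all coding starts, and its median was -1.18 against 0.12. Among the 5588 coding starts at least as GC-rich as the lowest of the 8, the median was 0.09. The ratio of the summed reads there was 1.01 for RAD21 and 0.820 for IgG. Scaling each start to all coding starts of its GC class left the median of the 8 at -1.19. The log2 shifts of this scaling ran only from -0.04 to 0.05. The starts were not scaled to windows away from sites, the reference used for the sites. By rank among all coding starts, Gsc and Cdx2 stood at percentile 0.875, Mixl1 at 1.91, Eomes at 5.82, T at 11.8, Cdx1 at 31.1, Mesp1 at 37.7 and Tbx6 at 42.0. The intervals of the ratio at all 8 starts overlapped each other, so this order is not resolved by the counts.

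**Figure D4:**
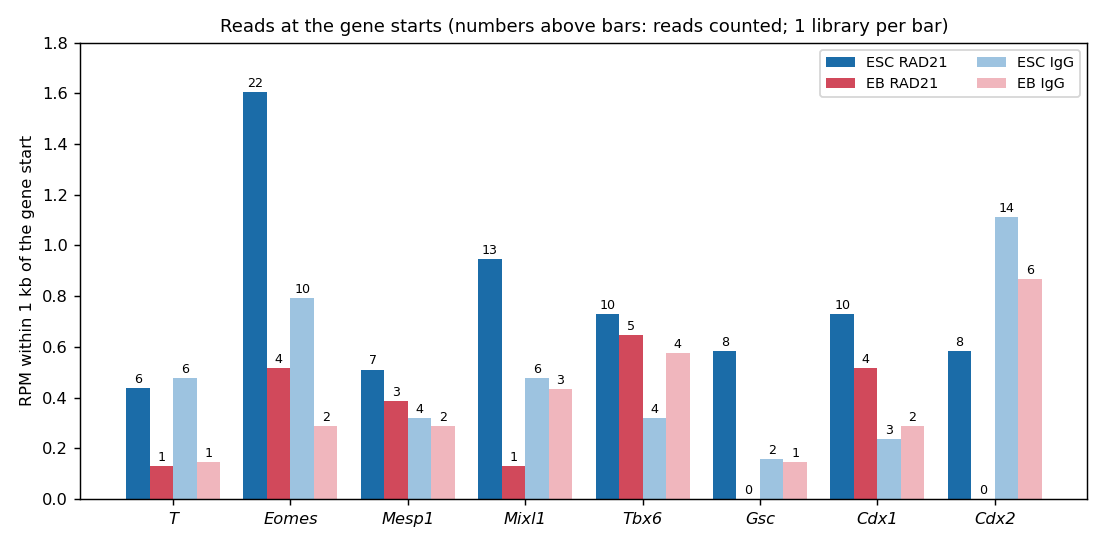
RPM within 1 kb of the gene start in the 4 libraries for the 8 genes, with the read count above each bar and 1 library per bar. EB RAD21 bars are lower than ESC RAD21 bars at every gene, Gsc and Cdx2 have 0 EB RAD21 reads, and IgG at Cdx2 exceeds RAD21 in both cell types.

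The same counts were made for 26 other genes of the streak and mesoderm, among them the ligands Wnt3, Nodal and Fgf8, the receptors Kdr and Pdgfra, and the transcription factors Foxc1, Hand1 and Gata4. They had 92 sites within 100 kb, of which 39 were listed in both cell types, 39 in ESCs only and 14 in EBs only, and 4 of these sites also belong to a gene of the list of 8. Of their 78 ESC sites 50.0% (38.5 to 61.5%) overlapped an EB site. At 19 of the 92 sites reads were higher in ESCs, beside 18.4% of all sites, and at 14 higher in EBs, beside 20.2%. The median log2 ratio was -0.01. Without the 4 shared sites, 18 of 88 were higher in ESCs and 13 in EBs, with a median of -0.06. At the starts the log2 ratio was below 0 at 13 of 26, with a median of -0.02 against -1.18 for the 8 genes. It ran from -1.98 at Tcf15 to 2.22 at Pdgfra. Both lists were chosen with earlier results of these data known. Only Pdgfra, a receptor of mesenchymal cells, had a summit within 1 kb of its start, in EBs. Its start held 10 RAD21 reads in ESCs and 28 in EBs, with 6 and 4 IgG reads, a ratio of 4.96 (2.34 to 11.4).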

How the data were processed

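The authors mapped RAD21-GFP by ChIP-seq in ESCs and EBs with 1 IgG library each, and deposited aligned 35-base reads on mm9, 1 per line, from which reads were counted here; the deposited read counts carry no normalization. The aligner is not given in the sources used here. The authors called peaks with MACS for each cell type against its IgG library and deposited peaks with a score, the p-value on a negative log10 scale multiplied by 10, at least 50.01 in both lists, and summits with a height that is the unscaled signal of piled-up reads. No 2 reads shared a position and strand on the autosomes. The EB IgG file ended on chromosome X and 7 broken lines of the ESC IgG file were skipped, so only autosomes were used.

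Reads were moved to the fragment centre (205 bp fragments in ESCs, 196 bp in EBs) and scaled per 1000000 autosomal reads. Ratios have exact conditional binomial 95% intervals, and log2 ratios had 1 read added. Genes came from GENCODE vM1 on mm9, and gene starts are the 5′ ends. Sites listed in both were counted at the ESC summit. Windows away from sites were taken every 5 kb at least 2 kb from any site. The CTCF matrix was learned on odd chromosomes and scored on even ones, and the other way round. The steps were tested on simulated data. Named with full values were, for each gene, the nearest site, the site of highest score and every site whose interval excluded 1, and of the 26 other genes those with a site within 1 kb of the start. The members and lists were chosen with earlier results of these data known. Alternatives concerned distance, score, overlap, counting window, scaling, pseudocount, start and motif threshold. Python 3.11.15, numpy 2.4.6, scipy 1.17.1, pandas 2.3.3, pysam 0.24.0 and samtools 1.23.1 were used.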

Additional observations from a re-analysis of the deposited data

How the results depend on the processing

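Of 46 alternative values of 12 results, 34 stayed within counting error or within 1.5 times the main count and 12 moved. Reversal of a direction was not scored for these results. All 144 alternative ratios of single sites stayed within the counting interval of the main ratio, and none reversed a called direction. Restricting to a score of at least 100 left 11 ESC and 6 EB sites and raised the share of ESC sites overlapping an EB site to 72.7%. The number of sites higher in EBs was 1 with reads within 500 bp, 1 after scaling to sites listed in both and 5 after scaling by GC class. The last scaling changed the sign of the median log2 ratio of the sites, from -0.35 to 0.32. RAD21 exceeded IgG in ESCs at 1 start within 500 bp and at 2 starts within 2 kb. The starts higher in ESCs numbered 0 within 500 bp and 1 within 2 kb. A CTCF match rate of 1e-04 gave 79.2% of sites with a match. The log2 scale shift was 0.38 for scaling to sites listed in both. Its median was -0.36 near the genes and -0.14 over all sites for the IgG reads of the surrounding 200 kb, and -0.46 and -0.22 for GC class. GC scaling, the other windows at gene starts for the ESC to EB comparison and the added scalings of the medians were chosen after seeing the data. No paired analysis was possible because each group has 1 library. With 1 library per group, depth, GC content and cell type cannot be told apart, and at counts of 0 to 5 reads only several-fold differences were detectable.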

Other observations

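Among the 26 other streak and mesoderm genes, 2 with uneven lists were singled out after their values were seen. Gata6, a zinc finger factor of endoderm and cardiac mesoderm, had 0 ESC and 4 EB sites within 100 kb, and its start held 14 RAD21 reads in each cell type, with 5 IgG reads in ESCs and 4 in EBs. Axin2, a feedback inhibitor of Wnt signalling, had 3 ESC and 0 EB sites, while its start held 7 RAD21 reads in each cell type, with 3 and 0 IgG reads. At neither start did the interval of the EB over ESC ratio exclude 1.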
